A study of Saccharomyces cerevisiae with 9 samples.

Results

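Upstream AUGs in the reading frame of the main start codon, each closed by a stop codon before that start, were carried by 231 of the 5762 RNAs of a synthetic Saccharomyces cerevisiae leader pool. They were chosen by sequence alone: the name of the RNA marks it as an upstream AUG variant, its lower-case atg and the lower-case agt at the main start are a multiple of 3 nt apart, and TAA, TAG or TGA lies between them in that frame. Several leaders of a gene can carry the same upstream AUG, so the 231 RNAs held 185 distinct upstream AUGs of 175 genes, out of 964 distinct upstream AUGs of 761 genes in the pool. The other upstream AUGs were in frame without a stop (44), out of frame and closed before the main start (385), or out of frame and running past it (350), and 1 further variant could not be read.

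The series probed RNA structure with dimethyl sulphate (DMS), which methylates unpaired A and C. Every library was made from pool RNA transcribed in vitro with T7 RNA polymerase and heated to 95 °C for 2 min. In 3 libraries the heated RNA received DMS without refolding. In 3 it was refolded and kept with DMS at 30 °C for 2 min, and in the other 3 it was refolded and kept in the same way with no DMS. The deposited columns of coverage and mutations give a replicate number that fits a library of each kind, so no column could be assigned and reactivity to DMS was left out. The table stops inside an RNA: it holds 4165 wild-type RNAs of Watson-strand genes and 219 of Crick-strand genes, but 628 and 750 variant RNAs (upstream AUG or stem-loop), so results that need a wild-type RNA cover mainly Watson-strand genes. Depth per library is not given, as the coverage columns could not be assigned. Every value below describes the RNA sequences or structures predicted from them.

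In eukaryotes a scanning ribosomal subunit usually starts at an AUG near the 5′ end of the mRNA, and a purine, in yeast most often A, at the third base before the codon favours its use. An upstream AUG followed by its own stop codon makes a short upstream reading frame. After ending there, ribosomes reach the main start only by reinitiation, or by scanning past the upstream AUG to begin with. Length of the frame, its distance from the main start and the sequence at its stop are known to matter for reinitiation in yeast, as on GCN4 mRNA, and a stop codon far upstream can send an mRNA to nonsense-mediated decay. In these RNAs the upstream AUG is the sole ATG of the leader, and the main start is written AGT.

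The shortest frames consist of the AUG and a stop codon alone. Of the 15 such frames 6 are shown, the first in alphabetical order among genes with a symbol. The sequences are in the DNA letters of the file, 5′ to 3′, with ATG and the stop in capitals. They belong to DAL7 (a malate synthase gene), FIN1 (a spindle filament protein), HOS4 (a subunit of a histone deacetylase complex), IQG1 (an IQGAP-related protein of cytokinesis), ISA2 (mitochondrial iron-sulphur cluster assembly) and KTR2 (a mannosyltransferase).
DAL7: catttacgcATGTAGtcttaattc
FIN1: gATGTGAcatagttca
HOS4: ttattatATGTGAcagagaaga
IQG1: ttcaattatATGTAAcaaggtggt
ISA2: gccttgtacATGTGAttgcacagt
KTR2: ggtATGTGAcacctatac
All 3 stop codons occur in these 6 frames. Their positions differ widely: the AUG of FIN1 follows 1 leader nt and that of IQG1 follows 64.

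Longer frames are shown by their 2 ends, since the stretch between exceeds what is printed. GLC3, the glycogen branching enzyme gene, had the longest frame of all, with 28 codons. SEN54, which encodes a subunit of the tRNA splicing endonuclease, followed with 25 codons, then YJL206C with 23 and SDS24 with 21. GLC3, SEN54 and SDS24 are shown, as the longest among genes with a standard name. In the starts below, ATG and the third base before it are in capitals where the leader reaches that far, and in the stops the stop codon is.
GLC3 start: TctATGgtgtataaaagt
GLC3 stop: ccaaaccaagtaTAAagaaccgtcaag
SEN54 start: ATGaaaaattattca
SEN54 stop: cttctgccaattTAAagtcaattcgct
SDS24 start: AcaATGcctgttcagatc
SDS24 stop: acaacccaactaTAAtaactataaaca
In SEN54 the stop is followed at once by agt, the main start. SDS24 carries A at the third base before the upstream AUG, and GLC3 carries T there.

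The frames were short. Their length, counted in codons from the AUG to the last codon before the stop, had a median of 5 with quartiles of 3 and 10 over the 185 distinct upstream AUGs. In 15 (8.11%, 95% Wilson interval 4.97 to 12.9) there was no codon between AUG and stop. A total of 96 (51.9%, 44.7 to 59.0) had 5 codons or fewer, and 43 (23.2%, 17.7 to 29.8) had more than 10. In the closed out-of-frame upstream AUGs the median was 6, with 28 of 385 frames of 1 codon (7.27%, 5.08 to 10.3) and 167 (43.4%, 38.5 to 48.4) of 5 codons or fewer. The intervals of both classes overlap for each of these shares. After the 4 longest came MCO32 and YKL076C with 19 codons each. GRX8, a glutaredoxin gene, RAD59, a recombination gene, YGR011W and YHR210C had 17 each. These intervals cover counting error only and take sites as independent, and the difference between classes was not tested, as sites are not replicates.

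TAA closed the most frames. It was the stop of 79 of 185 (42.7%, Wilson interval 35.8 to 49.9), followed by TAG with 66 (35.7%, 29.1 to 42.8) and TGA with 40 (21.6%, 16.3 to 28.1). Of the closed out-of-frame upstream AUGs, TAA ended 47.5%, TAG 32.2% and TGA 20.3%, each inside the interval of the in-frame set. The base after the stop was A in 73 (39.5%, 32.7 to 46.6), T in 44, G in 36 and C in 32. A further stop in the same frame lay before the main start in 85 (45.9%, 38.9 to 53.1), against 162 of 385 (42.1%) for the closed out-of-frame set. ATO3, an ammonium transporter gene, had 5 stops in the frame of its upstream AUG, the most of any. ELM1, which encodes a protein kinase of bud growth, was among those with 4.

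Replacing AUGs by AGU in the pool alters some stops. A TGA that overlaps the native codon (ATGA) is lost when the codon is written AGT, and a T in front of AGT makes a TAG. Putting ATG back for each lower-case agt of the leader left the stop at its place in 182 of 185 members. In SEN34, another gene of the tRNA splicing endonuclease, the frame of 13 codons ends in the pool at such a TAG, and no stop remained before the main start after restoring. In PDH1, which encodes a 2-methylcitrate dehydratase, the frame has 1 codon in the pool and 3 after restoring. In DAL2, the allantoicase gene, it has 10 in the pool and 4 after restoring. The capitals below mark the TAG of SEN34 and PDH1, and the GTA that stands in DAL2 where restoring gives TGA.
SEN34: attaacataTAGtcaaaaaga
PDH1: gccataatgTAGttataactt
DAL2: gggaaattaGTAagccgatca
In the opposite direction, 9 of the 44 in-frame upstream AUGs without a stop would be closed after restoring, each by a TGA that the pool lacks. They belong to NRG2 (a transcriptional repressor), PCA1 (a metal-transporting ATPase), GUD1 (guanine deaminase), EMA17, YNL109W, YOR013W and, 3 times, YEN1 (a Holliday junction resolvase). Read on restored leaders, the in-frame closed upstream AUGs would number 193 rather than 185.
YEN1: ccaatgaaaGTAcagttctat
PCA1: tttatacaaGTAaagagccca
GUD1: atgaatataGTAattgggctg
The capitals again mark the GTA in place of TGA, for YEN1 in the RNA whose upstream AUG is 60 nt before the main start, and in YEN1 and GUD1 the upstream atg itself is seen just before it.

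The distance between the stop codon and the main start had a median of 27 nt, with quartiles of 15 and 48 and a maximum of 105. It was under 10 nt in 30 of 185 (16.2%, Wilson interval 11.6 to 22.2) and over 50 nt in 46 (24.9%, 19.2 to 31.6). The closed out-of-frame set had a median of 26 nt, with 83 of 385 (21.6%) under 10 nt and 87 (22.6%) over 50 nt. In 8 frames the stop touched the main start with 0 nt between. Among them were BLS1, which encodes a subunit of an endosomal complex, CSC1, an osmosensitive calcium channel gene, DEG1, a pseudouridine synthase gene, and SAL1, a mitochondrial carrier gene. BLS1 and SAL1 are shown because AUG, stop and main start (agt after the second block of capitals) fit in 1 line.
BLS1: aATGatcgacaataaaTAAagtttc
SAL1: ttcaatcgaATGacggtcTAAagtctgctg
At the other end, the stop lay 105 nt before the main start in ELM1, 102 nt in ATO3, 99 nt in ARV1, which acts in sterol and lipid homeostasis, and 90 nt in SAS2, a histone acetyltransferase gene. All 4 had their upstream AUG within 4 nt of the leader's first base. Spacings this long leave few nt before the AUG, as these leaders are 96 to 121 nt long.
ELM1: ATGaacTAAtttggcctt
ATO3: atcgATGagcttcgctTGAttgccta
ARV1: aATGgcaTAAatcaagctg
SAS2: ATGTAGcgctctaag

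Many of these AUGs lay close to the 5′ end of the RNA. In the longest leader that carried it, the upstream AUG followed a median of 12 leader nt after the GGG of the transcript (quartiles 4 and 31, maximum 80). At 16 of 185 (8.65%, Wilson interval 5.39 to 13.6) it followed GGG directly, as in ELM1, GEA1 (a guanine nucleotide exchange factor of Arf), IKS1 (a putative kinase) and MSC1. At 79 (42.7%, 35.8 to 49.9) 10 or fewer leader nt came before it. The closed out-of-frame upstream AUGs were placed alike, with a median of 13 nt and 168 of 385 (43.6%) at 10 nt or fewer. Upstream AUGs that run past the main start out of frame had a median of 29 nt and 89 of 350 (25.4%, 21.2 to 30.2) at 10 nt or fewer. In-frame ones without a stop had a median of 20.5 nt and 16 of 44 (36.4%). The distance from upstream AUG to main start, which the rule for the classes itself constrains, had a median of 54 nt in the in-frame closed set, 56 nt in the closed out-of-frame set and 19 nt in the overlapping set. Read in the shortest leader that carried each in-frame closed upstream AUG, the median distance from the 5′ end was 8 nt. Among genes with a standard name, the farthest from the 5′ end were those of YHK8 with 80 nt, COX4, a cytochrome c oxidase subunit gene, with 79 nt, IMA5, an isomaltase gene, with 77 nt, and BRE4 with 75 nt. YKL222C, with 79 nt, and YGL193C, with 76 nt, lay in the same range.

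For most upstream AUGs whose gene had several wild-type leaders, at least 1 of these leaders was too short to hold the AUG. A wild-type leader was held for the genes of 89 of the 185 sites, 86 in Watson-strand genes and 3 in Crick-strand genes, and more than 1 for 73. In 64 of these 73 sites (87.7%, Wilson interval 78.2 to 93.4) at least 1 wild-type leader began downstream of the upstream AUG. Sites are counted rather than genes, and EXO5, YGR011W, KTR2 and YPR160W-A enter with more than 1 site. The share was 111 of 134 (82.8%, 75.6 to 88.3) for the closed out-of-frame set, 11 of 14 for in-frame upstream AUGs without a stop and 65 of 120 (54.2%, 45.3 to 62.8) for the overlapping set. A leader counts as too short when it is shorter than the distance from upstream AUG to main start. The rule for the classes constrains that distance (medians of 54 nt in the in-frame closed and 19 nt in the overlapping set). These shares therefore cannot be read apart from the rule. AAC3, an ADP/ATP carrier gene used without oxygen, is an example with 4 wild-type leaders. Its upstream AUG lies 96 nt before the main start, 2 leaders of up to 108 nt carry it and 2, the shorter of them 63 nt long, do not. SGO1, which encodes shugoshin, had 6 wild-type leaders, of which 4 reached its upstream AUG at 36 nt and 2 did not. YHK8 was an exception, with all 3 leaders, of 47 to 101 nt, reaching its AUG at 21 nt.

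The base 3 nt before the upstream AUG was T more often than A. Of the 147 upstream AUGs with at least 3 leader nt before them, T stood there in 57 (38.8%, Wilson interval 31.3 to 46.8), A in 38 (25.9%, 19.5 to 33.5), C in 34 (23.1%, 17.0 to 30.6) and G in 18 (12.2%, 7.89 to 18.5). At the main starts of the 175 genes A stood there in 96 (54.9%, 47.5 to 62.0), T in 35, G in 30 and C in 14. Where the stop touches the main start, in 8 frames, this base is the T of the stop codon and so set by the rule. Compared within the RNA, A was present at the main start and absent at the upstream AUG in 59 of 147, and the reverse held in 20. In 18 RNAs A was present at both and in 50 at neither. A was found at 75 of 296 (25.3%) closed out-of-frame upstream AUGs, 59 of 317 (18.6%) overlapping ones and 13 of 39 (33.3%) in-frame ones without a stop. C was found at 44 of 296 (14.9%, 11.3 to 19.4), 55 of 317 (17.4%) and 6 of 39 (15.4%) of them. T was the most frequent base in these classes too, at 135 of 296 (45.6%), 155 of 317 (48.9%) and 16 of 39 (41.0%). Among the 1-codon frames, A stood there in 1 of 12 (8.33%, 1.49 to 35.4). That frame is the one of PDH1, whose stop arises from the replaced codon. In frames of 2 to 5 codons A stood there in 16 of 61 (26.2%, 16.8 to 38.4). The share was 13 of 39 (33.3%, 20.6 to 49.0) for 6 to 10 codons and 8 of 35 (22.9%, 12.1 to 39.0) for more than 10. The intervals of all these length groups overlap.

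The context is shown for 4 frames, with the third base before ATG, ATG and the stop distinguished as stated. DON1, a gene of spore membrane formation, and EXO5, a mitochondrial exonuclease gene, carry A there, and ATG26, a sterol glucosyltransferase gene, and NMD2, which encodes the decay factor Upf2, carry T. NMD2 was picked after its values were seen. In the starts of DON1 and EXO5 the third base and ATG are in capitals, and in ATG26 and NMD2 ATG and the stop are.
DON1: tccagaattAaaATGgctttccttttg
EXO5: acaaagagtAgtATGaggggggaccca
ATG26: ttgcactttATGctttggTGAaaatccgta
NMD2: tcaacttaaATGcttaaaTAAtctaatatt
The frames of ATG26 and NMD2 have 3 codons each, ending 21 and 42 nt before the main start.

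Structures were predicted with ViennaRNA, and the unpaired probability was averaged from 10 nt before to 10 nt after a codon. A value of 1 means that all 23 bases are free in the prediction and 0 that all are paired. The window fits in the RNA for 126 of the 185 upstream AUGs. Its median was 0.426 (quartiles 0.349 and 0.501, range 0.0975 to 0.889). The other classes had medians of 0.441 (closed out of frame, 253 sites), 0.438 (overlapping, 289 sites) and 0.472 (in frame without a stop, 34 sites), all inside the quartiles of the in-frame closed set. Compared with the main start of the same RNA, the upstream AUG was predicted to be more paired in 78 of 126 RNAs and less in 48. The median difference was −0.0327, with quartiles of −0.127 and 0.0732 that span 0. With a window of 5 nt the median difference of the in-frame closed set was −0.00156 over 155 sites, 78 lower and 77 higher. Against its own stop codon, the upstream AUG was more paired in 80 of 126 RNAs (median difference 0.0358, stop minus AUG, quartiles −0.0448 and 0.112). The windows of AUG and stop overlap in short frames.

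Among genes with a standard name, the most open upstream AUG was that of EXO5, at 0.768 against 0.286 at its main start. MSE1, the mitochondrial glutamyl-tRNA synthetase gene, followed with 0.755 against 0.485, then RIB2, a riboflavin synthesis gene, with 0.737 against 0.482. WHI5, a repressor of the start of the cell cycle, had 0.732 against 0.551, and MSH1, a mitochondrial mismatch repair gene, had 0.697 against 0.474. All 5 were more open at the upstream AUG than at the main start. Ranking by the value at the upstream AUG favours that difference, and favours its reverse in the most paired genes below. Over the AUG codon alone the value was 0.945 in EXO5, 0.901 in MSE1, 0.910 in RIB2, 0.508 in WHI5 and 0.382 in MSH1. The median of that value over all members was 0.395. By the window again, DON1 was the most paired among genes with a standard name, with 0.114 against 0.352 at its main start. HRQ1, a RecQ helicase gene, had 0.142 against 0.660 and YAK1, a protein kinase gene, 0.176 against 0.562. STN1, a telomere capping gene, had 0.185 against 0.263, and MDM30, a gene of mitochondrial fusion, 0.252 against 0.200, the exception among these 5 in being less open at its main start. Their frames are printed next where they fit, with ATG and the stop in capitals.
MSE1: ccgctacATGacaaaaatcTAAtctggta
MSH1: taacatATGcgcaagaaaacgTAAaggcca
HRQ1: aaaagaaATGttcattTGAgaaggaaaa
YAK1: ttttttcacATGctaattTGAgcaatcagt
Across the 126 sites the unpaired probability had a Spearman rho of 0.37 and a Pearson r of 0.45 with the A content of the same 23 bases, and a rho of −0.10 with their GC content. The prediction is computed from these bases, so this describes the model as much as the sites, and sites are not replicates. By length, the median was 0.447 for 1-codon frames (10 sites), 0.439 for 2 to 5 codons (56), 0.418 for 6 to 10 (33) and 0.384 for more than 10 (27). The quartiles of these 4 groups overlap.

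The same upstream AUG could differ in predicted pairing between leaders of its gene. Of the 185 upstream AUGs, 37 were carried by 2 to 4 leaders, and in 21 the window fit in at least 2. The spread between the leaders had a median of 0.0622 (quartiles 0.0205 and 0.0983). The longest leader was more open than the shortest in 9 and more paired in 12. The widest spread was that of ARP1, a dynactin subunit gene, for its upstream AUG at 48 nt: 0.493 in the leader of 75 nt, 0.299 in that of 91 nt and 0.399 in that of 104 nt. Its other upstream AUG, at 42 nt, had 0.419, 0.387 and 0.424 in these leaders, and both share their stop codon. In WHI5 the value was 0.589 in the leader of 69 nt and 0.732 in that of 100 nt. In CSC1 it was 0.300 in the leader of 40 nt and 0.419 in that of 54 nt. No direction with leader length holds for these 3 genes together. These RNAs also differ at their 3′ ends, since a longer leader leaves less coding sequence in the insert.

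The predicted folding energy of the RNAs lay on both sides of that of their wild-type partners. For 89 upstream AUGs, the same 86 Watson-strand and 3 Crick-strand sites, the wild-type RNA of the same name was held, in which the upstream codon is AGT and the main start ATG. The energy of the variant minus that of the wild type had a median of 0 kcal/mol (quartiles −3.1 and 3.19), with 44 values below 0 and 43 above. The largest differences were −14.7 in SDS24 (−45.8 against −31.1 kcal/mol), −10.2 in SFI1, a spindle pole body gene, and −9.41 in PEP8, a retromer gene. In the other direction they were 11.5 in VPS16, a vacuolar fusion gene (−41.8 against −53.3 kcal/mol), 10.4 in GYL1 and 8.73 in ITT1, which acts in translation termination. Up to 11 bases within 12 nt of the insert's end also differ between variant and wild type, and their part in these differences was not tested. Around the upstream AUG itself, the unpaired probability of variant minus wild type had a median of 0.00996 over 60 sites, 32 higher and 28 lower.

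Members occurred mostly alone in their gene. Of 175 genes, 118 had no other upstream AUG in the RNAs analysed here and 53 also had upstream AUGs of another class: closed out of frame in 29, overlapping in 27 and in frame without a stop in 2. No gene had 3 or more members and 10 had 2. In 5 of these 10 both AUGs end at the same stop, so that the shorter frame is nested in the longer. Nested frames had 13 and 15 codons in EXO5, 8 and 10 in ARP1, 2 and 3 in YNG1, a histone acetyltransferase subunit gene, 3 and 17 in YGR011W and 6 and 16 in YLR152C. ELM1, DAL7, KTR2, YKL076C and YPR160W-A had 2 frames with separate stops. In ELM1 they were 2 codons long at the 5′ end and 4 codons long 30 nt into the leader, ending 105 and 69 nt before the main start.
ELM1 second frame: ccccccgATGatacttcttTAGgtgttac
DAL7, whose 1-codon frame is shown above, had a second frame of 9 codons that ended 3 nt before the main start.

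Genes of several functions held such frames. Of the 718 genes with an upstream AUG that matched a locus tag, 167 (23.3%, Wilson interval 20.3 to 26.5) were members, and the lists are set beside that share. Genes without an upstream AUG were not used as a base, since those of the Crick strand are mostly missing from the RNAs held. Of 6 genes with reported upstream reading frames that had an upstream AUG, 1 was a member, ARV1. Its 2-codon frame is followed by a second upstream AUG, closed out of frame. The other 5 were SCO1 and DCD1, closed out of frame, and INO2, CAD1 and AVT2, overlapping. Of 17 protein kinase and phosphatase genes 3 (17.6%, 6.19 to 41.0) were members, ELM1, IKS1 and YAK1. Of 19 transporter genes 4 (21.1%, 8.51 to 43.3) were, AAC3, ATO3, SAL1 and BIO5, whose product takes up a biotin precursor. Of 17 transcription factor genes 2 (11.8%, 3.29 to 34.3) were, AZF1, a zinc finger factor, with 6 codons, and RDS2, a regulator of gluconeogenesis, with 10. Of 7 autophagy genes 2 were, ATG26 and ATG27, which acts in the traffic of Atg9, with 3 and 2 codons. Of 4 cytosolic ribosomal protein genes 2 were, RPS6A with 5 codons and RPS25A with 8. Of 6 mitochondrial ribosomal protein genes none was, which allows a share of up to 39.0%. The intervals of all 7 lists include the share over all genes, and membership was not tested.
ATG27: aatcgATGcgaTAGataaaggta
RPS6A: aATGcttattcgtcatTGAattttt
RPS25A: tATGtttttactttttactttatcaTAGa
AZF1: atagATGgtcccacagagaaatTAAttgg
In RPS6A the AUG follows 1 leader nt and the stop lies 54 nt before the main start, whereas in RPS25A the AUG follows 47 nt and the stop lies 15 nt before it.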

How the data were processed

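The authors deposited 1 table of 1048575 positions with the name of each pool RNA, its reference base, and 6 columns of coverage and mutations. The RNA was reverse-transcribed with TGIRT-III, per the labels' protocols, and the submitters' processing notes list STAR and SAMtools, without versions or roles. No genome build was needed. The 6 value columns were not used, since each replicate number belongs to 3 of the 9 samples. The planned comparisons of mutation rates were therefore not made. The table ends inside an RNA, so the pool is held in part, with few wild-type RNAs of Crick-strand genes (219 of 4384).

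Bases were joined in file order into RNAs of 182 nt. A distinct upstream AUG is a gene and a distance to the main start, read in the longest leader that carries it. Locus tags were matched to symbols in a RefSeq table (R64) for 167 of 175 genes, without its coordinates. RNAs were folded with ViennaRNA 2.7.2 at 30 °C. Shares have 95% Wilson intervals and medians exact binomial 95% intervals (SciPy 1.17.1). No test was run, because RNAs and genes are not replicates of a condition. The classification was tested on 400 simulated RNAs and recovered all 400. The simulated leaders held no replaced AUG, so the check does not cover stops altered by the replacement.

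Members, gene lists and comparisons were chosen with earlier results of these data known. Named genes were the extremes of frame length, pairing, position, spacing, energy change and spread over leaders among genes with a symbol, and up to 4 members of each list. Genes with nested frames or replaced stops, genes of a short count, genes without a standard name inside a ranking, and SGO1 were named after their values were seen. Alternatives were each RNA on its own, 1 upstream AUG per gene, the shortest leader, either strand alone, folding at 37 °C, a window of 5 nt, GGG as context, a stop at least 10 nt before the main start and, added after the data were seen, restored AUGs.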

Additional observations from a re-analysis of the deposited data

How the results depend on the processing

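No paired analysis was possible because no column of values could be assigned to a sample, and for the same reason the planned mutation rates, coverage minimums and replicates left out were not run. The stop codons of Crick-strand genes alone were TGA in 16.2%, against 21.6% over all. Read in the shortest leader, the upstream AUG followed a median of 8 nt, against 12. With GGG counted as context, T stood 3 nt before the AUG in 30.8%, against 38.8%. The median unpaired probability was 0.450 with folding at 37 °C and 0.449 with a window of 5 nt, against 0.426. With that window the median difference to the main start was −0.00156, against −0.0327. The other alternatives lay within the 95% interval of the value they vary. Requiring 10 nt or more between stop and main start left 155 of 185 upstream AUGs, and restoring the replaced AUGs gave 193. Pairing is a prediction without reactivity, salt or protein. The coverage columns could not be assigned to libraries, so no depth limits can be stated.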

Other observations

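Several members encode proteins of translation and RNA surveillance. They were picked after their values were seen, no list was tested, and such genes were not counted in the other classes. None of the 6 mitochondrial ribosomal protein genes with an upstream AUG was a member. NMD2 encodes Upf2, a factor of nonsense-mediated decay, a pathway known to act on mRNAs with upstream frames. Its upstream frame has 3 codons and ends with TAA, 42 nt before the main start, and the unpaired probability at the AUG is 0.616. ITT1, whose product acts in translation termination, has 2 codons in front of TAG. In mitochondrial translation, MSE1 has 4 codons, MSD1, the aspartyl-tRNA synthetase gene, has 3 and GUF1, an elongation factor gene, has 3. The AUG of MSD1 follows 1 leader nt and that of GUF1 follows 5. ATG and the stop are in capitals.
ITT1: agttagttcATGgtgTAGaataacgaa
MSD1: cATGctttttTGAaaagactaa
GUF1: tgaatATGggaaacTAGttgcacata
Of these 5 genes GUF1 has its stop nearest to the main start, at 12 nt. This does not set the picked genes apart. A spacing under 10 nt was uncommon among all members, at 30 of 185 (16.2%). DEG1, the pseudouridine synthase gene, and SEN54, of the tRNA splicing endonuclease, were not among the 5 and have 0 nt.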
